A study of Mus musculus with 9 samples.

Results

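The expression of 40 mouse imprinted genes was examined in cultured spermatogonial stem cells (SSCs) that had lost Prmt5 or had lost it and then received a PRMT5 construct. The members were chosen by symbol from a list of imprinted genes, and they were found among the 53801 genes of the count table. By the allele expressed where a gene is imprinted, 22 are classed as paternally and 18 as maternally expressed. Whether each is imprinted in these cells was not measured. All 40 passed the filter on low counts, which left 22452 genes for testing. The cells carried Prmt5 flox/flox and Rosa26-CreERT2, and every group was given 4-hydroxytamoxifen (4OHT) at 1 µM, which activates the ubiquitously expressed Cre recombinase and deletes Prmt5. There were 9 bulk mRNA libraries in 3 groups of 3, which were 4OHT alone, 4OHT with overexpressed PRMT5 (E444Q), a catalytically dead mutant, and 4OHT with overexpressed PRMT5 (WT). Because the sample labels only abbreviate the constructs, each construct's name here rests on reading MU as the mutant and OE as the overexpressed wild type. The age of the mice from which these cells came and the number of cell lines are not given in the sources used here, and the ethanol-treated control was not analysed here.

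Imprinted genes are transcribed mainly from the allele of one parent. For many of them, but not all, this is because a differentially methylated region (DMR) received a DNA methylation mark in the sperm or in the oocyte. They lie in clusters in which long noncoding RNAs are often expressed from the allele on which the protein-coding genes are silent. In the male germ line the earlier marks are erased and a paternal pattern is set, in which the regions of H19-Igf2, Dlk1-Meg3 and Rasgrf1 become methylated and those methylated in oocytes stay unmethylated. After fertilization the zinc finger protein ZFP57 binds the methylated hexamer TGCCGC in these regions and protects them together with TRIM28. Counts per gene do not separate the parental alleles, so the values below are total RNA levels and say nothing of which allele was read.

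Total counts were between 78751996 and 95370711 with 4OHT alone, between 192033300 and 365719548 with PRMT5 (E444Q) and between 79941857 and 154557863 with PRMT5 (WT), so the PRMT5 (E444Q) libraries were the deepest. Levels are given as CPM, which are counts relative to the TMM-normalized library size. A read pair was taken as about 4 counts, which is an assumption. The Prmt5 RNA level was 30.3 ± 1.92 CPM in the 4OHT libraries, and it reached 146.1 ± 0.957 CPM with PRMT5 (E444Q) and 1076 ± 7.61 CPM with PRMT5 (WT) (SD, n = 3). The constructs were therefore not expressed at equal RNA levels. The sources do not say whether the libraries of a group came from separate cultures, and the p-values measure only the spread between these libraries. Germ cell genes such as Ddx4 and Dazl were present in every library, and the summed level of 19 of them was 3635 to 3718 CPM with 4OHT alone, 5268 to 5371 CPM with PRMT5 (E444Q) and 5571 to 5660 CPM with PRMT5 (WT). The summed level of 20 fibroblast markers was 15070 to 17914 CPM, 8009 to 8056 CPM and 6205 to 6305 CPM in the same order, with no marker at 0. The summed level of 15 macrophage markers was 185.4 to 200.5 CPM, 1136 to 1170 CPM and 2234 to 2356 CPM. Lyz2 alone made up 151.3, 943.9 and 1878 CPM of these sums on average. C1qa, C1qb and C1qc of that list went the other way. They were at 2.21, 1.89 and 2.26 CPM on average with 4OHT alone and under 1 CPM with either construct. With either construct 12 of the 15 markers were called higher than with 4OHT alone and 3 lower (edgeR adjusted p under 0.05). Of 10 markers of somatic testis cells, Hsd3b1 was at 0 in all libraries, and the list summed to between 26.6 and 35.9 CPM. In bulk RNA, fewer cells of a type and less RNA per cell cannot be told apart.

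RefSeq promoter windows (assembly GRCm38.p6, 250 bases before to 50 bases after an annotated start) were matched for 32 of the 40 genes, and the entries for H19, Rtl1, Peg10, Sgce, Impact, Trappc9, Peg13 and Kcnk9 were missing. The letters TGCCGC, or GCGGCA on the other strand, were found in 10 of the 48 windows of members (20.8%) and in 3813 of all 32851 windows (11.6%). Member windows also held more CpG, with a median of 13.5 in 300 bases against 7 for all windows. Such a match is a description of the letters and not a bound site, and whether a window lies in a DMR was not examined. The windows of 4 members that differed between the constructs are shown 5′ to 3′ on the strand of the gene, with the hexamer in capitals, because 3 of them hold it once and that of Kcnq1ot1 does not. For genes with several windows, one that holds the hexamer was picked for display, so the display does not show how common it is. Rian, which also differed between the constructs, has 1 window, with 0 hexamers and 0 CpG, and it is not shown. The noncoding RNA Meg3 has the shown window, number 1 of its 2, at chr12:109540746-109541045 on the plus strand, and its other window lacks the hexamer. The growth factor Igf2 has the shown window, number 3 of its 4, at chr7:142661222-142661521 on the minus strand, and its other windows lack the hexamer. The receptor adaptor Grb10 has the shown window, number 2 of its 2, at chr11:12037371-12037670 on the minus strand, and its other window lacks the hexamer. The noncoding RNA Kcnq1ot1 has its window at chr7:143296498-143296797 on the minus strand.
Meg3: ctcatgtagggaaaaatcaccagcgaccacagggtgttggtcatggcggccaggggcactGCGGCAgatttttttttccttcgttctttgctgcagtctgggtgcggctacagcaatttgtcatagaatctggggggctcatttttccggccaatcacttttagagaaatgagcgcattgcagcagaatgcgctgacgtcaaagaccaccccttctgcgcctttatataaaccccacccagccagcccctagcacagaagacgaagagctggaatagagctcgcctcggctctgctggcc
Igf2: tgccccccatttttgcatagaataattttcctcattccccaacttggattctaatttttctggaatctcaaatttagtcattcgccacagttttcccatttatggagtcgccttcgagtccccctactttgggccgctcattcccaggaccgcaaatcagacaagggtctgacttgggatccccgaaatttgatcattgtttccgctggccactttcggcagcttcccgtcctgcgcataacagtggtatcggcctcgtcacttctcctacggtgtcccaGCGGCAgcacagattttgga
Grb10: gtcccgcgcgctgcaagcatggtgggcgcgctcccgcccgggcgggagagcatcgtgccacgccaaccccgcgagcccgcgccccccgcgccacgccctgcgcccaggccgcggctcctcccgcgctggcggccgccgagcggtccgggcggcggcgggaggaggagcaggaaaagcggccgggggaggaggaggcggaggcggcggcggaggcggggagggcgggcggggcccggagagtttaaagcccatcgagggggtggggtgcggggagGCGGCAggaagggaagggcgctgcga
Kcnq1ot1: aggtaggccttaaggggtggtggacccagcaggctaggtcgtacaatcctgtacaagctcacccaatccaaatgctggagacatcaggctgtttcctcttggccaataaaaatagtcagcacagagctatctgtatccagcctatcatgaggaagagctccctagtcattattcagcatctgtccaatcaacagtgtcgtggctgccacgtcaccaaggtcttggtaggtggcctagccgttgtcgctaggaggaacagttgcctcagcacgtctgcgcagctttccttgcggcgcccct
The 300 bases held 13 CpG for Meg3, 14 for Igf2, 45 for Grb10 and 9 for Kcnq1ot1.

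The 2 constructs differ in catalytic activity, but their libraries also differed in Prmt5 RNA (146.1 against 1076 CPM) and in the summed cell type markers. The comparison of the constructs cannot tell these apart. Of the 40 imprinted genes, 8 had more RNA with PRMT5 (E444Q) than with the wild type and 0 had less (edgeR quasi-likelihood test, adjusted p under 0.05). Of all genes tested, 2.12% were higher and 1.06% were lower in that comparison. The 8 genes were Meg3, Rian, Rtl1, Kcnq1ot1, Igf2, Grb10, Impact and H19, which are 4 paternally and 4 maternally expressed genes. At an unadjusted p under 0.05 there were 12 members, beside 12.4% of all genes. DESeq2 called 9 members higher, with Sgce added, and 0 lower, beside 3.18% and 1.90% of all genes. The median log2 fold change of the members was 0.10, beside 0.01 for all genes tested. The differences were under 1.5-fold except for Meg3 and Rtl1, and 1 member, Meg3, passed a test against a fold change of 1.5 (glmTreat).

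**Figure D1:**
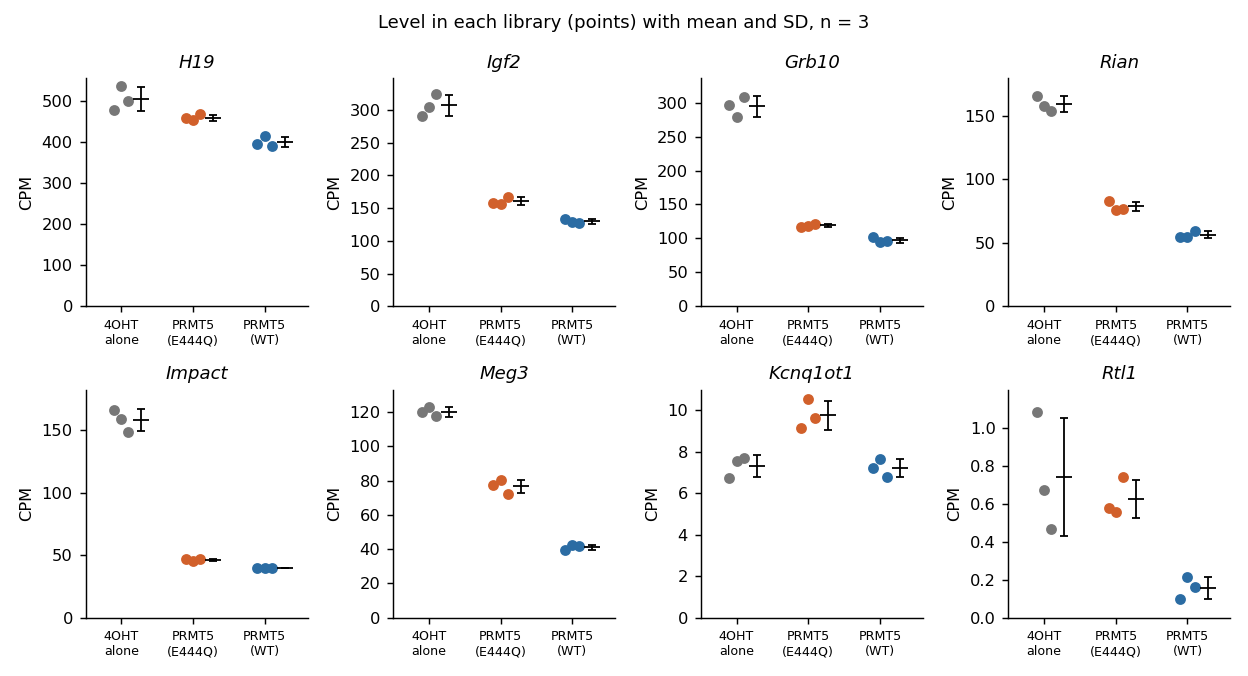
CPM (vertical axis, from 0) of the 8 imprinted genes called higher in the mutant than in the wild-type libraries, with 1 point for each of the 9 libraries and the mean and SD of each group of 3 beside them. The PRMT5 (E444Q) points lie above the PRMT5 (WT) points in every panel, with the widest gaps for Meg3 (72.4 to 80.1 CPM against 39.6 to 42.2 CPM) and Rtl1.

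The largest difference among abundant members was that of Meg3 (ENSMUSG00000021268, chr12:109541001-109571726, plus strand), a long noncoding RNA of the maternal allele. It was at 120.0, 123.0 and 117.5 CPM with 4OHT alone, at 77.6, 80.1 and 72.4 CPM with PRMT5 (E444Q) and at 39.6, 42.2 and 41.7 CPM with PRMT5 (WT). The 3 groups did not overlap, and PRMT5 (E444Q) lay between the others. Between the constructs, mutant against wild type, Meg3 had a log2 fold change of 0.90 ± 0.05 (SE, edgeR adjusted p = 5.41e-07), a fold of 1.86. Against 4OHT alone, the log2 fold change was -0.65 with PRMT5 (E444Q) and -1.55 with PRMT5 (WT). An exon stretch of 1228 bases of Meg3 is shared with a noncoding gene on the opposite strand, and whether the counting used strand is not stated.

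Rian (ENSMUSG00000097451, chr12:109603940-109661716, plus strand), the noncoding host of many small nucleolar RNAs, lies downstream of Meg3. It was at 165.9, 157.6 and 154.0 CPM with 4OHT alone, at 83.0, 76.2 and 76.9 CPM with PRMT5 (E444Q) and at 54.5, 54.8 and 59.7 CPM with PRMT5 (WT). Again no library of 1 group reached another group, and the order was that of Meg3. The log2 fold change between the constructs was 0.48 ± 0.06 (SE, edgeR adjusted p = 0.00019), and those against 4OHT alone were -1.02 and -1.498. Mirg, the noncoding host of many miRNAs at the end of the domain, was far lower in level, with 3.90, 4.15 and 4.81 CPM, 3.50, 3.09 and 2.77 CPM, and 2.98, 2.55 and 2.97 CPM in the same group order. The Mirg libraries of the constructs overlapped (log2 fold change 0.14 ± 0.15, SE), and both constructs were under 4OHT alone, with log2 fold changes of -0.46 and -0.60, of which the first was not called without 4OHT library 3 or PRMT5 (E444Q) library 3 (-0.37 and -0.39) or without a filter on low counts (-0.40).

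Dlk1, the paternally expressed gene at the other end, encodes a transmembrane protein related to Notch ligands. Its level was 59.9, 64.2 and 65.7 CPM with 4OHT alone, 67.0, 68.0 and 68.6 CPM with PRMT5 (E444Q) and 61.3, 65.7 and 63.0 CPM with PRMT5 (WT). The values lay close together, and no comparison passed the test (log2 fold changes of 0.10 between the constructs, and of 0.10 with PRMT5 (E444Q) and 0.00 with PRMT5 (WT) against 4OHT alone). Without a filter on low counts, or without 4OHT library 3, Dlk1 was called higher with PRMT5 (E444Q) than with 4OHT alone (log2 fold changes of 0.16 and 0.12, edgeR adjusted p = 0.0306 and 0.0470). The Meg3 to Dlk1 ratio of CPM was 1.79 to 2.00 with 4OHT alone, 1.05 to 1.18 with PRMT5 (E444Q) and 0.642 to 0.661 with PRMT5 (WT). The ratio did not overlap between any 2 groups.

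Rtl1, which encodes a retrotransposon-derived protein required for the placental vessels, is expressed from the paternal allele, like Dlk1. It was barely detected, at 1.08, 0.669 and 0.469 CPM with 4OHT alone, at 0.577, 0.555 and 0.740 CPM with PRMT5 (E444Q) and at 0.0985, 0.214 and 0.1595 CPM with PRMT5 (WT). The PRMT5 (WT) values rest on 8, 20 and 25 counts, which are about 2 to 6 read pairs at 4 counts each. The log2 fold change between the constructs was 1.97 ± 0.41 (SE, edgeR adjusted p = 0.0168). The maternal allele of this locus carries miRNAs antisense to Rtl1, and 6 of the 7 annotated miRNA hairpins within the gene are on the opposite strand, so reads of the antisense RNA cannot be told apart from Rtl1 if strand was not used.

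**Figure D2:**
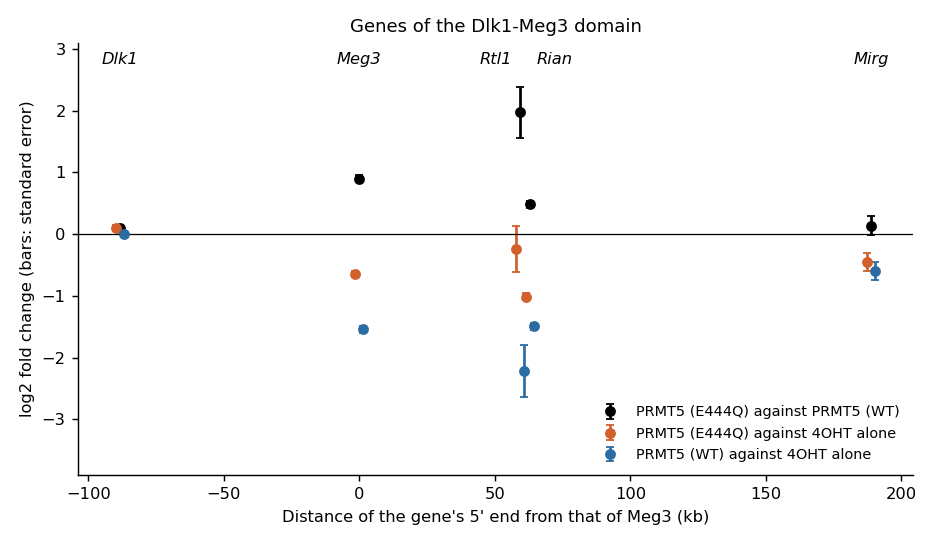
Log2 fold change (vertical axis, bars are the standard error of the edgeR fit) of the 5 imprinted genes of the list that lie in the Dlk1-Meg3 domain, against the distance of each gene's 5′ end from that of Meg3 in kb (horizontal axis), for the 3 comparisons. Between the constructs (black), Dlk1 at -88.2 kb is at 0.10, Meg3 at 0.90, Rtl1 at 59.3 kb at 1.97, Rian at 62.9 kb at 0.48 and Mirg at 188.8 kb at 0.14.

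Along the domain the difference between the constructs was 0.90 at Meg3, 0.48 at Rian and 0.14 at Mirg on the log2 scale, which is the order in which the 3 maternal noncoding RNAs lie. The interval from the start of Meg3 to that of Rian is 62.9 kb, and to that of Mirg 188.8 kb. The plot of fold changes along the domain does not show this order for PRMT5 (E444Q) against 4OHT alone, at -0.65, -1.02 and -0.46. For PRMT5 (WT) against 4OHT alone the values were -1.55 ± 0.05, -1.498 ± 0.06 and -0.60 ± 0.15 (SE). There Meg3 and Rian did not differ beyond their standard errors, so no order between them can be read. No test of the order was made.

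In the H19-Igf2 domain, both genes were lowest with PRMT5 (WT). H19 (ENSMUSG00000000031, chr7:142575529-142578143, minus strand), a maternally expressed noncoding RNA and host of a miRNA, was at 479.9, 537.9 and 501.6 CPM with 4OHT alone, at 458.2, 453.6 and 468.5 CPM with PRMT5 (E444Q) and at 395.9, 415.7 and 392.2 CPM with PRMT5 (WT). The groups did not overlap, but the difference between the constructs was small (log2 fold change 0.20 ± 0.05, SE, edgeR adjusted p = 0.0488). Igf2 (ENSMUSG00000048583, chr7:142650766-142666816, minus strand), a paternally expressed fetal growth factor, was at 291.3, 304.8 and 324.5 CPM, at 158.2, 156.9 and 167.5 CPM and at 133.7, 128.7 and 127.2 CPM in the same order. It differed by a log2 fold change of 0.31 ± 0.05 between the constructs (SE, edgeR adjusted p = 0.00358). Against 4OHT alone, the log2 fold change of Igf2 was -0.93 with PRMT5 (E444Q) and -1.24 with PRMT5 (WT), and that of H19 was -0.14 and -0.34. The call of H19 with PRMT5 (E444Q) was lost without 4OHT library 2, PRMT5 (E444Q) library 1 or 2, or PRMT5 (WT) library 1 or 2 (log2 fold changes between -0.14 and -0.08), and also without a filter on low counts (-0.08) and in a model of only the 2 groups (-0.13). The H19 to Igf2 ratio of CPM was therefore 1.55 to 1.76 with 4OHT alone, 2.80 to 2.90 with PRMT5 (E444Q) and 2.96 to 3.23 with PRMT5 (WT). Igf2 shares 3596 exonic bases with a readthrough gene on the same strand, and how reads were divided between the genes is not stated.

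Grb10 (ENSMUSG00000020176, chr11:11930508-12038683, minus strand) encodes an adaptor that restrains insulin and IGF receptor signalling and is maternally expressed outside neurons. It was at 296.1, 278.4 and 308.8 CPM with 4OHT alone, at 117.5, 118.5 and 121.4 CPM with PRMT5 (E444Q) and at 101.7, 94.3 and 96.9 CPM with PRMT5 (WT). The constructs were both far below 4OHT alone and close to each other, with a log2 fold change of 0.29 ± 0.05 between them (SE, edgeR adjusted p = 0.00518). Impact, a paternally expressed inhibitor of the GCN2 kinase pathway, was at 166.6, 159.3 and 148.9 CPM, at 46.7, 45.4 and 47.3 CPM and at 39.96, 40.15 and 39.70 CPM in the same order. Its difference between the constructs was 0.22 ± 0.05 on the log2 scale (SE, edgeR adjusted p = 0.0313), beside falls of 1.77 and 1.99 against 4OHT alone.

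Kcnq1ot1 (chr7:143203458-143296549, minus strand), the paternally expressed noncoding RNA that silences its cluster in cis, had another pattern. It was at 6.72, 7.57 and 7.70 CPM with 4OHT alone, at 9.16, 10.5 and 9.64 CPM with PRMT5 (E444Q) and at 7.21, 7.64 and 6.78 CPM with PRMT5 (WT). PRMT5 (WT) overlapped 4OHT alone, and PRMT5 (E444Q) was above both, with log2 fold changes of 0.44 ± 0.10 against PRMT5 (WT) (SE, edgeR adjusted p = 0.0292) and 0.42 against 4OHT alone. The annotated exon spans 93092 bases, so its level per length was low.

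The 32 other members did not pass the test between the constructs. Those nearest to it were Sgce, with a log2 fold change of 0.30 and an edgeR adjusted p of 0.0836, and Airn, with 0.90 and an adjusted p of 0.241 from under 2 CPM. The lowest value was that of Kcnk9, at -0.29 with under 1 CPM in every group. Only 4 of the 8 calls, those of Meg3, Rian, Igf2 and Grb10, were also made when any 1 of the 9 libraries was left out. The count fell from 8 to 4 without PRMT5 (E444Q) library 1, 2 or 3 and without PRMT5 (WT) library 1 or 3, and the calls lost were those of H19, Impact, Kcnq1ot1 and Rtl1. Without PRMT5 (WT) library 2 there were 6 calls, with Sgce among them.

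Fibroblast markers moved the same way between the constructs as the imprinted genes that were called. Of 20 markers, 17 were higher with PRMT5 (E444Q) and 1, Col6a3, was lower, with a median log2 fold change of 0.35 and a highest value of 0.49, for Lox. Meg3 and Rtl1 lay above that highest value, while H19, Igf2, Grb10 and Impact lay below the marker median. Of 19 germ cell genes, 0 were called between the constructs by edgeR, with 5 at an unadjusted p under 0.05. Their median was -0.06, with 17 values negative and 2 positive. For 11 of them every PRMT5 (E444Q) library lay below every PRMT5 (WT) library, and for 1 above. Of all 22452 genes tested, 2884 lay apart below and 2920 above in this way. Macrophage markers moved opposite to the fibroblast markers, with 10 of 15 lower with PRMT5 (E444Q) and a median of -0.95.

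**Figure D3:**
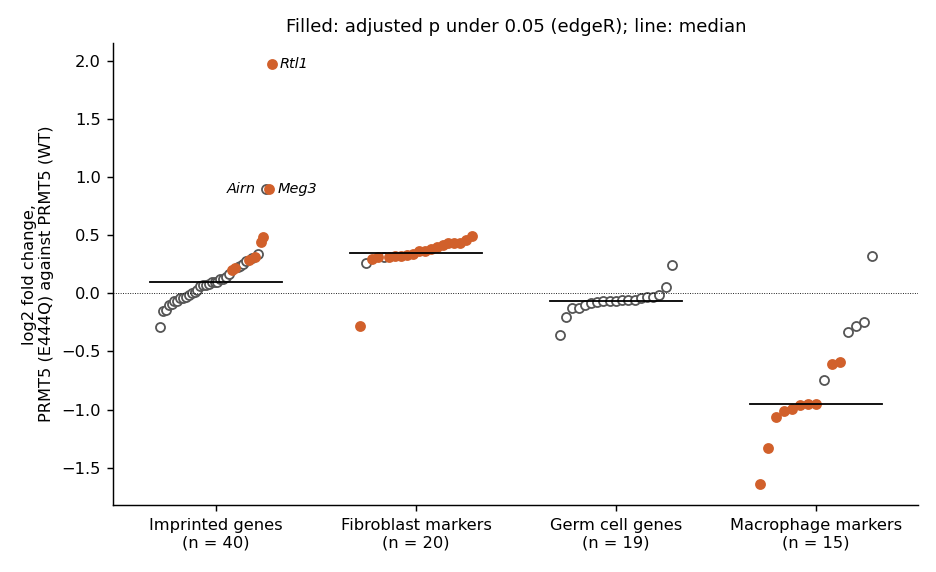
Log2 fold change between the constructs, mutant against wild type (vertical axis), for the 40 imprinted genes, 20 fibroblast markers, 19 germ cell genes and 15 macrophage markers, each gene a point, filled where the edgeR adjusted p was under 0.05, with a line at each list's median (0.10, 0.35, -0.06 and -0.95). Rtl1, Meg3 and Airn are the only imprinted genes above every fibroblast marker.

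Relative to the summed fibroblast markers, the called members differed in their pattern. For every 1000 CPM of fibroblast markers, Igf2 was at 18.1 to 19.3 CPM with 4OHT alone, 19.5 to 20.8 CPM with PRMT5 (E444Q) and 20.2 to 21.4 CPM with PRMT5 (WT). The Igf2 ratio thus stayed within a narrow band while its CPM fell from 291.3 or more to 133.7 or less between 4OHT alone and PRMT5 (WT). Its ratios with either construct lay above those with 4OHT alone. Fn1 and Fbln2 made up 4957 and 2677 of the 16327 CPM of summed markers with 4OHT alone. With PRMT5 (E444Q) against 4OHT alone, single markers ranged from -2.18 to 0.17 on the log2 scale, so the ratios depend on the markers summed. Rian had ratios of 8.60 to 11.01, 9.49 to 10.4 and 8.73 to 9.46 in the same order. Meg3 did not follow, since its ratio was 6.56 to 7.96 with 4OHT alone, 8.98 to 9.97 with PRMT5 (E444Q) and 6.34 to 6.80 with PRMT5 (WT), with PRMT5 (E444Q) above both other groups. The ratio of H19 was 27.997 to 33.6 with 4OHT alone and rose to 56.5 to 58.2 and 62.2 to 67.0 with the constructs. For H19, Grb10 and Impact the wild type had a higher ratio than the mutant, the reverse of their CPM. The mean ratio of Igf2 was also higher with the wild type (20.8) than with the mutant (20.0), with overlapping libraries. The ratios of Rtl1 were 0.0690 to 0.0919 with PRMT5 (E444Q) and 0.0158 to 0.0344 with PRMT5 (WT). Those of Kcnq1ot1 were 0.430 to 0.473 with 4OHT alone, 1.14 to 1.31 with PRMT5 (E444Q) and 1.07 to 1.23 with PRMT5 (WT), and the constructs overlapped. Whether any of these RNAs came from fibroblasts was not tested, and the sources do not state whether feeder cells were in the sequenced samples.

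**Figure D4:**
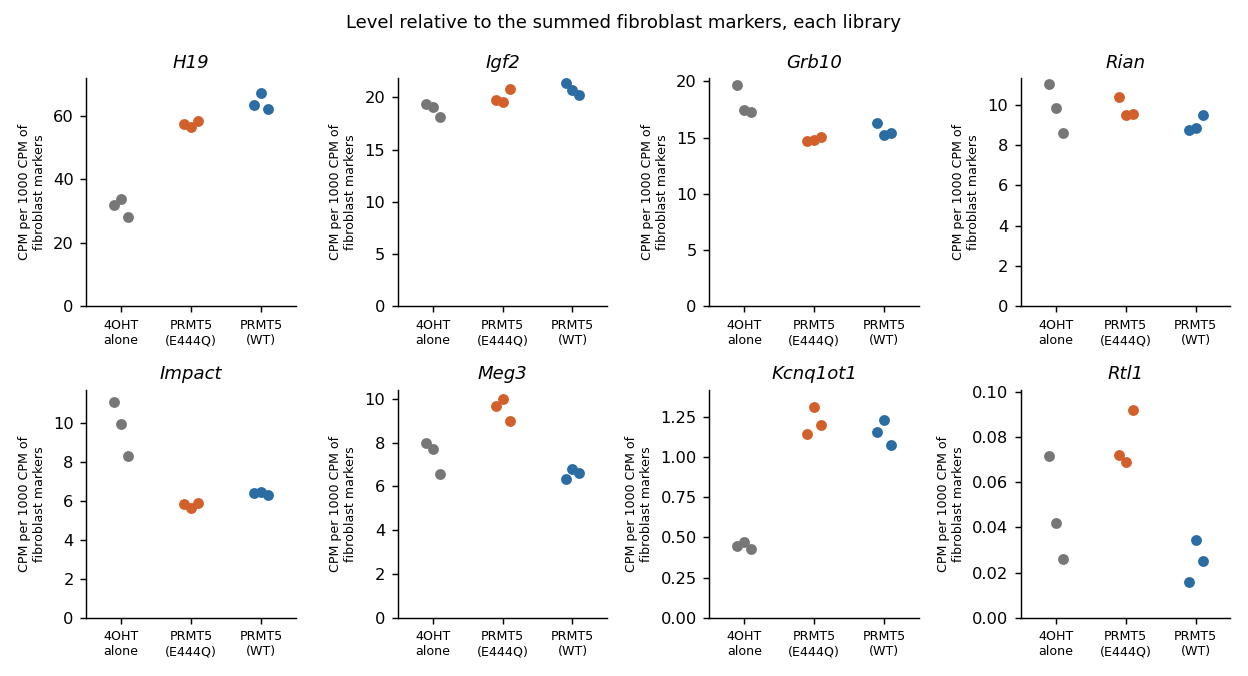
Level of the same 8 imprinted genes in each library as CPM for every 1000 CPM of the 20 summed fibroblast markers (vertical axis, from 0), 3 points a group. Igf2 and Rian lie at similar heights in all groups, Meg3 is highest with PRMT5 (E444Q) (8.98 to 9.97), and H19 and Kcnq1ot1 are lowest with 4OHT alone.

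The comparisons of each construct with 4OHT alone moved most imprinted genes, as they moved most genes. With PRMT5 (E444Q), 14 members were higher and 19 lower than with 4OHT alone, where 29.5% and 26.5% of all genes tested were higher and lower. With PRMT5 (WT), 12 were higher and 21 lower, beside 29.9% and 27.9% of all genes. The median log2 fold change of the members was -0.20 with PRMT5 (E444Q), beside 0.04 for all genes, and -0.23 with PRMT5 (WT), beside 0.02. Maternally expressed members had medians of -0.32 and -0.29, and paternally expressed members -0.03 and -0.13. The 4OHT libraries are the same in both comparisons, so these are not independent of each other. The 4OHT libraries also had the highest summed fibroblast markers, whose median log2 fold changes were -1.18 with PRMT5 (E444Q) and -1.39 with PRMT5 (WT). With PRMT5 (E444Q), 18 of the 20 markers were called lower and 1, Dcn, higher (0.17). All 20 were lower with PRMT5 (WT). The summed germ cell genes were lowest with 4OHT alone, and their medians were 0.65 and 0.72. With either construct 13 of the 19 germ cell genes were called higher and 5 lower, among the latter Gfra1, Ret, Zbtb16 and Nanos2. The part of this shift in the values below was not tested.

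**Figure D5:**
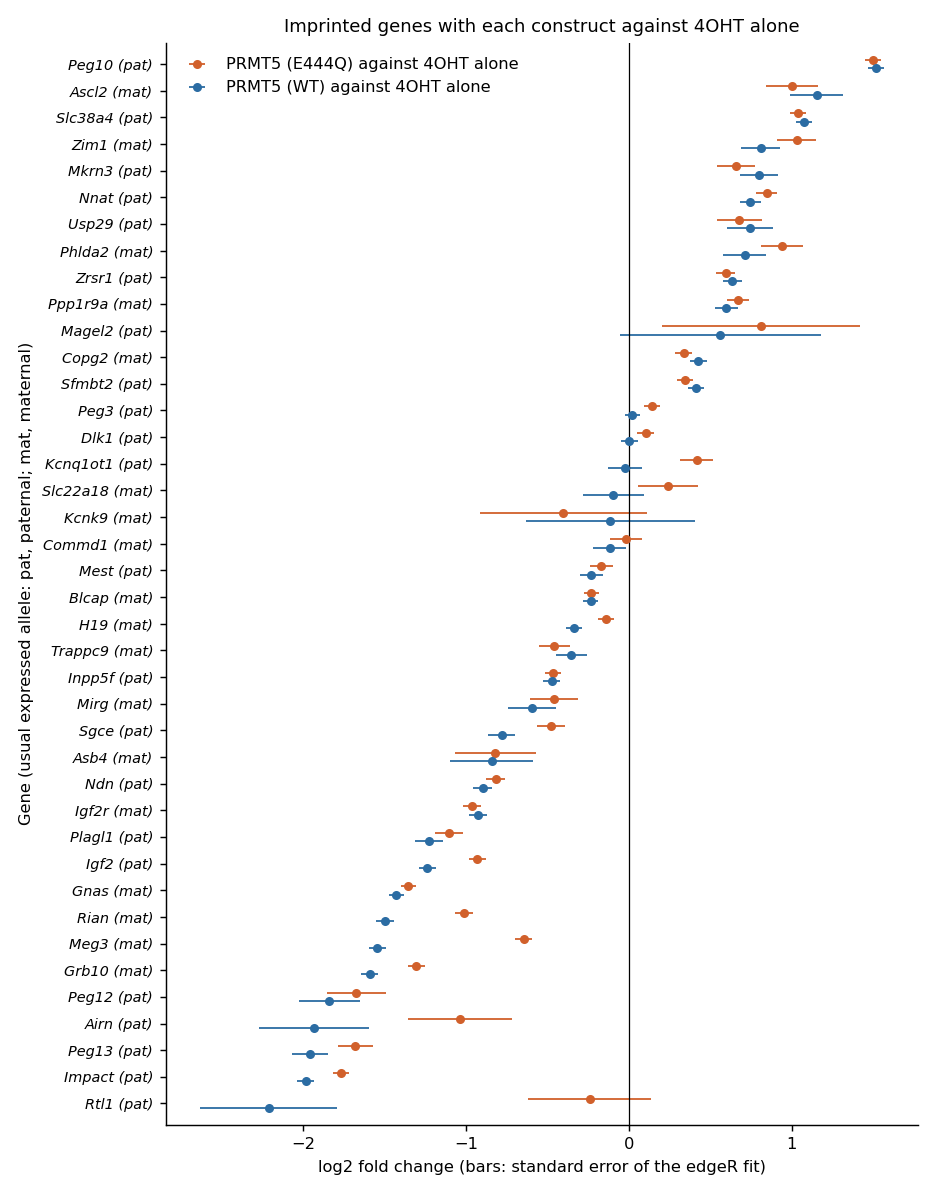
Log2 fold change against 4OHT alone (horizontal axis, bars are the standard error of the edgeR fit) of the 40 imprinted genes with PRMT5 (E444Q) (orange) and PRMT5 (WT) (blue). The genes are ordered by the PRMT5 (WT) value, with their class, paternally or maternally expressed, in brackets. Values run from -2.21 for Rtl1 to 1.52 for Peg10, and Meg3, Rian, Airn and Rtl1 show the widest gaps between the constructs.

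Among the members lower than with 4OHT alone were the noncoding Peg13, the Frat family gene Peg12 and the signalling protein Gnas. Peg13, which lies within an intron of Trappc9, was at 23.3, 27.5 and 28.2 CPM with 4OHT alone, at 8.52, 8.14 and 7.98 CPM with PRMT5 (E444Q) and at 6.55, 7.86 and 5.97 CPM with PRMT5 (WT). Peg12 was at 4.57, 5.49 and 4.42 CPM, at 1.45, 1.34 and 1.73 CPM and at 1.07, 1.46 and 1.49 CPM in the same order. For both genes the constructs overlapped or nearly did, and 4OHT alone stood apart. The log2 fold changes with PRMT5 (E444Q) and PRMT5 (WT) were -1.68 and -1.96 for Peg13 and -1.68 and -1.84 for Peg12. Gnas, the stimulatory G protein alpha subunit, was at 754.8, 735.1 and 795.0 CPM with 4OHT alone, at 303.4, 295.4 and 294.1 CPM with PRMT5 (E444Q) and at 277.1, 285.1 and 286.3 CPM with PRMT5 (WT), with log2 fold changes of -1.36 and -1.43. The Gnas count covers transcripts of several promoters, of which some are imprinted and others are not in most tissues, and it shares 988 exonic bases with the antisense RNA Nespas.

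Igf2r, the maternally expressed receptor that removes IGF2 and sorts lysosomal enzymes, was at 762.6, 765.6 and 881.8 CPM with 4OHT alone, at 411.7, 418.8 and 404.3 CPM with PRMT5 (E444Q) and at 429.4, 418.9 and 418.3 CPM with PRMT5 (WT). The constructs overlapped, and both lay below 4OHT alone, with log2 fold changes of -0.96 and -0.93. Its antisense partner Airn, the paternally expressed noncoding RNA whose transcription silences Igf2r in cis, was low in level, at 2.25, 1.64 and 2.64 CPM, at 0.830, 1.18 and 1.17 CPM and at 0.701, 0.267 and 0.727 CPM in the same order. Airn was lower with PRMT5 (E444Q) (log2 fold change -1.04, edgeR adjusted p = 0.0137) and with PRMT5 (WT) (-1.94, adjusted p = 0.000224). The call with PRMT5 (E444Q) was lost without 4OHT library 3 or without PRMT5 (E444Q) library 1, where the adjusted p was 0.0541 and 0.0626. Silencer and target thus had lower levels in the same libraries. The annotated exons of the pair share no bases, but Airn overlaps the start of Igf2r on the opposite strand.

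The Peg10-Sgce cluster moved in opposite directions around adjacent starts. Peg10, a paternally expressed gene derived from a retrotransposon and required for the placenta, was at 30.4, 28.9 and 30.4 CPM with 4OHT alone, at 82.8, 84.4 and 86.8 CPM with PRMT5 (E444Q) and at 89.0, 84.2 and 83.9 CPM with PRMT5 (WT). It had the highest log2 fold changes of all members, 1.501 and 1.518, and the constructs overlapped. Sgce, its paternally expressed neighbour on the opposite strand, encodes epsilon-sarcoglycan and fell from 23.1 ± 1.23 CPM to 16.6 ± 0.0795 and 13.5 ± 1.53 CPM (SD, n = 3). The Peg10 to Sgce ratio was 1.21 to 1.40 with 4OHT alone, 5.02 to 5.22 with PRMT5 (E444Q) and 5.60 to 7.00 with PRMT5 (WT). Of the maternally expressed genes beside them, Ppp1r9a, which encodes an actin-binding neurabin, was higher than with 4OHT alone (13.1 CPM against 20.9 and 19.8 CPM). Asb4, a subunit of ubiquitin ligases, was lower (1.71 CPM against 0.969 and 0.952 CPM), and its calls were lost without 4OHT library 2 (log2 fold changes of -0.63 and -0.66).

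In the Peg3 domain none of the 3 members was called lower. Peg3, a paternally expressed zinc finger protein, was at 71.5, 70.8 and 70.4 CPM with 4OHT alone, at 74.9, 82.0 and 77.9 CPM with PRMT5 (E444Q) and at 72.3, 71.3 and 72.3 CPM with PRMT5 (WT). It was the most level of these genes, with log2 fold changes of 0.14 (edgeR adjusted p = 0.0207) and 0.02 (adjusted p = 0.731), and the first was no longer called without PRMT5 (E444Q) library 2 (0.09) or 3 (0.13), without PRMT5 (WT) library 3 (0.13), with DESeq2 size factors (0.11), with the DESeq2 test (0.11) or with a filter of 1 CPM (0.11). Usp29, a paternally expressed ubiquitin protease that starts beside Peg3 on the other strand, was at 6.70, 4.76 and 7.22 CPM, at 10.003, 10.4 and 9.50 CPM and at 9.34, 11.3 and 10.7 CPM. Zim1, a maternally expressed zinc finger gene, was at 4.03, 5.21 and 5.34 CPM, at 10.4, 9.85 and 9.62 CPM and at 8.28, 9.33 and 8.01 CPM. Usp29 and Zim1 stood apart from 4OHT alone with either construct, with log2 fold changes of 0.68 and 0.74 for Usp29 and 1.03 and 0.81 for Zim1, and these are genes usually expressed from opposite alleles.

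The Kcnq1ot1 cluster also held maternally expressed genes that rose. Phlda2, which restrains placental growth, was at 2.85 ± 0.106 CPM with 4OHT alone, 5.48 ± 0.378 CPM with PRMT5 (E444Q) and 4.68 ± 0.537 CPM with PRMT5 (WT) (SD, n = 3). Ascl2, a transcription factor of the trophoblast, was at 2.71 ± 0.643, 5.42 ± 0.0589 and 6.04 ± 0.593 CPM in the same order (SD, n = 3). Slc22a18, a membrane transporter, was between 2.67 and 3.38 CPM on average and passed no test.

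The paternally expressed genes of the Prader-Willi region differed in direction. Ndn, which encodes the MAGE protein necdin, was at 99.1 ± 5.27 CPM with 4OHT alone, 56.2 ± 1.06 CPM with PRMT5 (E444Q) and 53.1 ± 2.91 CPM with PRMT5 (WT) (SD, n = 3). Mkrn3, a RING finger protein that delays puberty, went the other way, at 5.60 ± 0.741, 8.83 ± 0.771 and 9.74 ± 0.542 CPM. Peg12 fell, as given above, and Magel2, another MAGE gene, was under 1 CPM in every group. At the Nnat-Blcap locus, where the small membrane protein gene Nnat lies inside an intron of Blcap, Nnat rose from 19.6 to 35.2 and 32.9 CPM while Blcap fell from 88.5 to 75.4 and 75.2 CPM. The Nnat to Blcap ratio was 0.202 to 0.246 with 4OHT alone, 0.462 to 0.474 with PRMT5 (E444Q) and 0.413 to 0.453 with PRMT5 (WT).

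Of the remaining members, Slc38a4, an amino acid transporter, rose most, from 83.2 ± 4.37 CPM with 4OHT alone to 171.1 ± 2.42 CPM with PRMT5 (E444Q) and 175.6 ± 5.71 CPM with PRMT5 (WT) (SD, n = 3). Zrsr1, a splicing factor gene within Commd1, rose from 31.9 to 48.2 and 49.5 CPM, while its host Commd1, a regulator of copper handling and protein sorting, was at 26.9, 26.6 and 24.8 CPM and passed no test, although without 4OHT library 3 it was called lower with PRMT5 (WT) (log2 fold change -0.24). Sfmbt2, a Polycomb group gene, rose from 183.5 to 233.0 and 244.2 CPM, and the coatomer subunit gene Copg2 from 111.0 to 140.1 and 149.2 CPM. Mest, an enzyme-like gene whose 3′ end shares 912 exonic bases with Copg2 on the opposite strand, was at 23.7, 21.1 and 20.2 CPM and was called lower with PRMT5 (WT) than with 4OHT alone (log2 fold change -0.23, edgeR adjusted p = 0.0132). With PRMT5 (E444Q) the Mest values were -0.17 and 0.0572, and they passed the test under 6 of 17 alternatives, among them the DESeq2 test (-0.20, adjusted p = 0.0177). Plagl1, a zinc finger transcription factor, fell from 27.3 to 12.7 and 11.7 CPM, and the phosphatase gene Inpp5f from 121.7 to 88.0 and 87.5 CPM. Trappc9, a trafficking gene around Peg13, fell from 42.5 to 30.9 and 33.2 CPM. Its neighbour Kcnk9, a potassium channel, was at 0.324, 0.245 and 0.301 CPM and passed no test.

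Compared per kb of exon, the order of the members changed with the construct. H19 was at rank 1 in every group, with 205.9 ± 11.9, 187.0 ± 3.09 and 163.1 ± 5.13 CPM per kb for 4OHT alone, PRMT5 (E444Q) and PRMT5 (WT) (SD, n = 3), and Igf2r was at rank 2, with 86.3 ± 7.30, 44.2 ± 0.779 and 45.4 ± 0.668 CPM per kb. Gnas was at rank 3 with 4OHT alone, at 68.1 ± 2.73 CPM per kb, and Slc38a4 was at rank 3 with either construct, at 40.2 ± 0.567 and 41.2 ± 1.34 CPM per kb. Igf2 was at rank 4 with 4OHT alone and at rank 8 with PRMT5 (WT), at 22.7 ± 0.599 CPM per kb, below Blcap at 24.7 ± 0.754 and Gnas at 25.3 ± 0.448 CPM per kb, and the last 2 did not differ beyond their spread. Meg3 was at rank 17, 22 and 25 and Rian at rank 15, 21 and 24 in the 3 groups. The lowest levels were those of Kcnk9, Magel2, Kcnq1ot1 and Rtl1 in every group.

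Of 16 genes that set, read or remove imprints, 0 were called between the constructs by edgeR. At an unadjusted p under 0.05 there were 4, beside 12.4% of all genes. With PRMT5 (WT) against 4OHT alone 8 were higher and 5 lower, beside 29.9% and 27.9% of all genes. With PRMT5 (E444Q) 7 were higher and 4 lower, beside 29.5% and 26.5% of all genes. Zfp57, also named after its values were seen, was called lower with both constructs. It was at 16.3 CPM on average with 4OHT alone, 13.3 CPM with PRMT5 (E444Q) and 10.8 CPM with PRMT5 (WT). Its partner Trim28, at 479.9, 482.3 and 498.3 CPM in the same order, was called in no comparison. Neither were Dnmt1 and Ctcf. The germ line CTCF paralogue Ctcfl was at 5.44 to 7.33 CPM with 4OHT alone, 13.9 to 14.6 CPM with PRMT5 (E444Q) and 13.6 to 16.4 CPM with PRMT5 (WT). The de novo DNA methyltransferase Dnmt3b rose from 88.7 CPM on average to 174.3 and 180.4 CPM, and the 5-methylcytosine dioxygenase Tet2 fell from 13.5 to 7.18 and 6.64 CPM. Their relatives Dnmt3a, Tet1 and Tet3, named after their values were seen, went the other way, since Dnmt3a fell from 248.2 to 165.0 and 178.2 CPM, while Tet1 rose from 5.39 to 9.98 and 10.4 CPM and Tet3 from 122.0 to 159.8 and 164.7 CPM. Between the constructs 2.12% of all genes were higher with PRMT5 (E444Q) and 1.06% lower. Of 30 other imprinted genes, 25 were tested and 1 was called in that comparison. This was the tetraspanin gene Tspan32 of the Kcnq1ot1 cluster, at 3.35 to 3.82 CPM with PRMT5 (E444Q) and 6.00 to 6.69 CPM with PRMT5 (WT) (log2 fold change -0.77 ± 0.14, SE, edgeR adjusted p = 0.00741), beside 0.0781 to 0.132 CPM with 4OHT alone. It moved as most of the macrophage markers did, and their part in this value was not tested. Against 4OHT alone, Tfpi2, a protease inhibitor gene near Peg10, fell from 77.2 to 8.99 and 8.25 CPM, and Osbpl5, a lipid transfer protein gene of the Kcnq1ot1 cluster, from 108.1 to 25.2 and 21.5 CPM.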

How the data were processed

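Bulk mRNA was sequenced from 9 libraries of mouse SSCs. Trimming by the authors used BBmap and Trimmomatic 0.39, alignment to GRCm38 used HISAT2 2.2.1, and StringTie 2.2.1 gave the gene values. The deposited table holds unnormalized whole-number counts for each gene. How StringTie output became whole counts, strand use and multiply aligned reads are not stated. A value of 4 counts was 1.35 to 1.84 times as frequent as its neighbours, so 1 read pair was taken as 4 counts, and 3 read pairs correspond to 0.0317 to 0.158 CPM (counting error only).

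All genes were tested in R 4.3.3 with edgeR 4.0.16 (filterByExpr, minimum count 10 and total 15, TMM, quasi-likelihood model of the group over all libraries, Benjamini-Hochberg adjustment over 22452 genes, threshold 0.05). Alternatives were DESeq2 1.42.0, its size factors, other filters, 2-group models, counts divided by 4, a replicate block, a fold of at least 1.5 and leaving out each library. The steps were tested on simulated data. Coordinates and exon overlaps came from GENCODE vM21 and promoters from RefSeq. Members, lists and tests were chosen with earlier results of these data known. Values of each library are given for H19, Igf2, Dlk1, Meg3, Rian, Mirg, Peg3, Zim1, Usp29, Airn, Igf2r, all members called between the constructs and the 10 called members with the largest change of PRMT5 (WT) against 4OHT alone at 1 CPM or more in a group. Itgam was left out of the macrophage list because its symbol belongs to 2 genes.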

Additional observations from a re-analysis of the deposited data

How the results depend on the processing

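Between the constructs 8 members were higher with PRMT5 (E444Q), beside 7 to 9 under other normalizations, filters, count scales and tests, 1 with a fold change of at least 1.5, and 4 to 9 when each library was left out in turn; the cause was not tested. A fold of at least 1.5 also left 6 members higher and 10 lower with PRMT5 (E444Q) than with 4OHT alone, and 6 higher with PRMT5 (WT). The lower calls with PRMT5 (WT) that were lost at that fold were those of H19, Mirg, Mest, Inpp5f, Blcap, Asb4 and Trappc9. The labels give the groups the same replicate numbers, but deviations of libraries with the same number correlated between -0.02 and 0.05, so the numbers were not taken as pairs; the replicate block gave 7 members higher between the constructs, without H19, and the other counts of calls were the same with it. Rtl1 and other members under 1 CPM are limited by depth.

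Values that changed sign were not called. Between the constructs these were log2 fold changes of Inpp5f (-0.00318) and Blcap (-0.00712) with DESeq2 size factors, of Inpp5f (-0.00326) and Blcap (-0.00681) with the DESeq2 test, of Peg10 (0.0225), Igf2r (0.00285), Zrsr1 (3.88e-05) and Slc38a4 (0.00269) without a filter, and, when libraries were left out, of Asb4 (-0.14 to 0.26), Magel2 (-0.0072 to 0.53), Inpp5f (-0.00897 to 0.023), Blcap (-0.018 to 0.023) and Peg10 (-0.034 to 0.011). Against 4OHT alone they were, with PRMT5 (E444Q), Commd1 without a filter (0.0413) and, when libraries were left out, Rtl1 (-0.49 to 0.12) and Commd1 (-0.14 to 0.044); and, with PRMT5 (WT), Dlk1 with DESeq2 size factors (-0.0178) and test (-0.0179), a 1 CPM filter (-0.0404), 2 groups (-0.0165) and counts divided by 4 (-0.0357), Peg3 with the 1 CPM filter (-0.0206) and counts divided by 4 (-0.0147), and, when libraries were left out, Dlk1 (-0.052 to 0.037), Kcnk9 (-0.31 to 0.28), Kcnq1ot1 (-0.099 to 0.0046) and Slc22a18 (-0.20 to 0.091).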
